A study of Mus musculus with 34 samples.

Results

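The regions described here are 771 places of open chromatin that were called in uninduced mouse embryonic fibroblasts (MEF). They were called again in each of 4 lists made while such cells, with no knockdown, were driven toward endothelial and blood fate. In 3 lists of embryoid bodies (EB) they were not called. Further lists of knockdown MEF and of other EB had no part in the choice. They were chosen by list membership. The summits of the uninduced MEF list on chromosomes 1 to 19 and X were searched. A summit was taken when each of 4 induced MEF lists and none of 3 EB lists labelled 12 h had one within 250 bp. This gave 771 of 62028 uninduced summits, or 1.24%, with an exact Clopper-Pearson 95% interval of 1.16 to 1.33%. A summit is the base where the signal of a called peak tops out, and a broad peak can have several. The intervals here and below cover counting error only.

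Accessibility was read by ATAC-seq, which sequences the DNA that a transposase can reach, in 34 samples that form 17 groups of 2. The labels name the fibroblasts iHA-Etv2 MEF, cells in which doxycycline (Dox) switches on an HA-tagged Etv2. The 4 induced groups of the selection were MEF on Dox at day 1, at day 2, at day 7, and at day 7 in the Flk1-positive fraction, and they were set against MEF with no Dox at day 0. A second MEF arm carried a Brg1 knockdown and was profiled at day 0 and, with and without Dox, at days 1, 2 and 7. The EB, aggregates of differentiating embryonic stem cells, had Dox, Dox with Flk1-positive cells, or no Dox, all labelled 12 h. The names of these EB groups also carry D25. A separate set of EB, labelled Brg1-floxed, day 4 and Dox in every sample, did or did not receive 4-hydroxytamoxifen (4OHT). The labels state neither the way of the knockdown nor the driver of the recombinase, and no label says that replicates are separate animals, clones or lines.

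Most distant regulatory DNA is open in some cell types and closed in others, and a fibroblast's set of such sites is held open by factors of the AP-1, TEAD and RUNX families among others. Etv2 is an ETS-family factor that specifies endothelial and blood progenitors and can bind DNA in closed chromatin, while Brg1 is the ATPase of the SWI/SNF remodelling complex, which moves and evicts nucleosomes. When a cell is reprogrammed, sites of the starting cell type that remain open are often spoken of as its memory.

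For 15 of the 17 groups both replicates' labels name the same summit list, so such a list is 1 value with no replicate error and no p-value. The lists held between 11188 and 85498 summits, and the unsorted day-7 list of the selection held 18418, against 50015 at day 1, 26217 at day 2 and 29520 in Flk1-positive cells. Each summit carries a deposited score, −log10 of its q value. It grows with depth, and read depth was not analysed here. Scores rank or limit summits within a list. Where the scores of 1 region are printed for several lists, they describe its calls only. A lower score in another list does not show a loss of accessibility. The knockdown and floxed lists write their scores in another number format than the other lists, so an effect of the knockdown and unlike processing cannot be told apart. Summit lists do not show whether Brg1 was reduced. A region that is not in a list was not called there, which does not show that it was closed.

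Few of the regions lie in promoters, and those that do show which letters such a site can hold. A promoter window is the 300 bases from 250 before to 50 after an annotated start, read from RefSeq on build GRCm38.p6 (mm10). Of the 771 summits, 19 lay in such a window, and 32619 windows were read in all. Of these, 4 are shown 5′ to 3′, picked after their values were seen to give 1 window for each of the AP-1 and RUNX letters, 1 with both the TEAD and the ETS letters, and 1 with none. Capitals mark TGANTCA (AP-1), GGAATG (TEAD), TGTGGT (RUNX) and CCGGAA (ETS) on either strand.
Osgin1, chr8:119436897-119437196, plus strand: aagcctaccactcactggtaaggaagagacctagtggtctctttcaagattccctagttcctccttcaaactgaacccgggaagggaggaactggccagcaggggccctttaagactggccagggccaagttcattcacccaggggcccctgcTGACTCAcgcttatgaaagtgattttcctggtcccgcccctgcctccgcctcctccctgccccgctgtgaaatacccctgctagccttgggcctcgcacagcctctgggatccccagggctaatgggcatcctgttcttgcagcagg
Ltbp1, chr17:75178531-75178830, plus strand: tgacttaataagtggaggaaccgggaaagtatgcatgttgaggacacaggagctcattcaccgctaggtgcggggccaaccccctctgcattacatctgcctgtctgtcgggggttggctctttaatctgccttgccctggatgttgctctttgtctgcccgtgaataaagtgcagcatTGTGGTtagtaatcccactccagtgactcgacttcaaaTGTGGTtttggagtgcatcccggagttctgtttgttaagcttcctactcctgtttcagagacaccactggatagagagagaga
Bzw1, chr1:58392648-58392947, plus strand: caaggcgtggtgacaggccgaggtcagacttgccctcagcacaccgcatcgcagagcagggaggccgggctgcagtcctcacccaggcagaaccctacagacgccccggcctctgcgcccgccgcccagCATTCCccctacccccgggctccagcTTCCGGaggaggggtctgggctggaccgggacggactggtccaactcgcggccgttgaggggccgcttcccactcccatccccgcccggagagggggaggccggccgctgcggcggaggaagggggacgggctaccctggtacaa
Il1r1, chr1:40224830-40225129, plus strand: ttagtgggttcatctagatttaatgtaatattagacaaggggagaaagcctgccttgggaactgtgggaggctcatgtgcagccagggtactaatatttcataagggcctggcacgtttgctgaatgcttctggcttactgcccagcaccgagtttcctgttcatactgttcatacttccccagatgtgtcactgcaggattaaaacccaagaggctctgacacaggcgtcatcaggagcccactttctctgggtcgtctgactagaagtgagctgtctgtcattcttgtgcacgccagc
Osgin1 is an oxidative stress response gene, Ltbp1 encodes a matrix protein that binds latent TGF-β, Bzw1 a regulator of translation and Il1r1 the receptor for interleukin-1. The summits lay 60 bp before the start at Osgin1, 202 bp before a start inside the Ltbp1 gene, 46 bp after the start at Bzw1 and 76 bp before the start at Il1r1.

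Each of the 19 summits was counted with 1 window, since 1 of them lies in a pair of overlapping windows. The AP-1 letters were found for 3 of 19, or 15.8%, with an interval of 3.38 to 39.6%. The share was 5.08% with matching within 100 bp, 30.8% within 500 bp and 9.09% with MEF lists of equal length. The same letters stood in 34.2% of the 357 windows with an EB-absent summit that was not kept, in 3.75% of the 3547 windows with a kept summit that EB share, and in 7.85% of all windows. The GC-box letters GGGCGG ran the other way, at 10 of 19 (52.6%), against 22.4% for EB-absent summits not kept, 76.7% for kept summits shared with EB and 35.9% of all windows. The TEAD letters were in 2 of 19 (10.5%), against 26.1% for those not kept, 10.1% for those shared with EB and 14.6% of all windows, and the ETS letters in 2 of 19 (10.5%), against 10.6% for those not kept, 35.9% for those shared with EB and 15% of all windows. The RUNX letters were in 1 of 19 (5.26%), against 23.0% for those not kept, 10.5% for those shared with EB and 16.6% of all windows. The CTCF core was in none, against 0.653% of all windows, and none of 19 allows a share of up to 17.6%. With 19 summits the intervals are wide, and a match is a description of letters and not a bound site. The sequence around the other regions was not analysed here.

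The selection was narrow. Of the uninduced summits absent from EB, 771 of 34168 were kept in all 4 induced lists, or 2.26% (2.10 to 2.42%), against 9002 of 27860 that EB share, or 32.3% (31.8 to 32.9%). The 771 regions were therefore 7.89% of the 9773 kept summits. They are set below against those 9002 summits, called kept and shared with EB, and against the other 33397 EB-absent summits, which were missing from at least 1 induced list and are called not kept. The distances between a region and its induced partners were short, with a median of 30 bp at day 1, 40 bp at day 2, 51 bp at day 7 and 43 bp in Flk1-positive cells. The number of regions depended on the lists asked for and their length. When the unsorted day-7 list was left out of the rule, 2955 uninduced summits met it. The number was 424 when the 5 MEF lists were cut to equal length and 86 when they were limited to scores of at least 10.

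The limits of the selection leave some regions near the line. The farthest induced partner lay 226 to 250 bp away for 39 regions inside the limit, and 51 EB-absent summits fell just outside, at 251 to 275 bp. On the EB side, 47 regions had their nearest EB summit 251 to 300 bp away, and 109 kept summits fell outside with one at 201 to 250 bp. Within 1 kb of an EB summit stood 188 of the 771, while 273 were over 10 kb from any. The regions fell in 743 distinct peaks, 53 shared a peak with another of them, and 17 were in peaks of over 10 summits.

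In the uninduced list the 771 regions had a median score of 34.2, with a middle range of 13.8 to 59.7 and extremes of 1.40 and 1138. The kept summits shared with EB had a median of 44.1, and the EB-absent summits not kept one of 8.25. The median region stood at the 83.1st percentile of all uninduced scores, and 153 regions scored under 10. The selection asked for a call in 5 lists, so high scores are part of how these regions were chosen.

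The highest score belonged to a summit at chr9:3035366, 299865 bp from the nearest coding gene, Alkbh8, in a peak of 95 summits with an EB summit 373 bp away. It was found in 1 knockdown list. No list of artefact-prone or repeated DNA was used, and whether this peak, or the other peaks of many summits named below, lies in repeats was not tested. The next, at chr17:59076975, lay 63608 bp from Nudt12, which encodes a nudix hydrolase, and was the sole summit of its peak. Its scores were 291 at day 1, 97.5 at day 2, 38.2 at day 7 and 115 in Flk1-positive cells, against 315 with no Dox. It was also called in all 7 knockdown lists, with the highest score there, 87.7, at day 0 and the lowest, 2.34, at day 7 with no Dox.

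A more usual high-scoring region was chr8:54548485, 1846 bp outside Asb5, which encodes an ankyrin repeat and SOCS box protein. Its scores were 129, 55.9 and 9.18 at days 1, 2 and 7 and 23.0 in Flk1-positive cells, against 184 with no Dox. In the knockdown arm it scored 49.1 at day 0, 28.0 with Dox and 51.4 with no Dox at day 1, and 60.8 with Dox and 53.6 with no Dox at day 2, and it was not called at day 7. The intronic or exonic place of a summit could not be read, because only gene intervals were used. The regions inside the Prkci interval (chr3:31023135, score 169; Prkci encodes an atypical protein kinase C) and the Camk2d interval (chr3:126831652, score 134; Camk2d encodes a calmodulin-dependent kinase) were likewise called in all 5 knockdown lists of days 0 to 2, and at day 7 in 1 list for Camk2d and in none for Prkci. Others of the 10 highest-scoring regions had as nearest genes Tmem267, Lclat1, Kif21a, Srgap3 and Rassf9.

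The knockdown arm was not used in the selection and is a second set of fibroblast cultures in which to look for these regions. At day 0 a summit within 250 bp was found for 610 of 771, or 79.1% (76.1 to 81.9%), against 29.5% of EB-absent summits not kept, 91.0% of kept summits shared with EB and 46.4% of all uninduced summits. On day 1 the share was 78.7% (607 of 771) with Dox, against 77.7% (599 of 771) with no Dox. The same shares over all uninduced summits were 33.3% with Dox, against 44.5% with no Dox. On day 2 it was 83.5% (644 of 771) with Dox, against 79.2% (611 of 771) with no Dox, while all uninduced summits gave 45.1% with Dox, against 47.0% with no Dox. On day 7 it was 26.3% (203 of 771) with Dox, against 24.4% (188 of 771) with no Dox, while all uninduced summits gave 11.5% with Dox, against 10.3% with no Dox. The day-7 knockdown lists were the 2 shortest MEF lists, with 13644 summits with Dox, against 11188 with no Dox, and how far their length sets these shares was looked at by cutting all knockdown lists to 11188 summits. The shares were then 46.6 to 58.5% in the 5 lists of days 0 to 2, and on day 7 23.5% with Dox, against 24.4% with no Dox. The share of all uninduced summits was not computed at this cut. At full length, in each of the 7 lists the share of the 771 lay above that of all uninduced summits and below that of the kept summits shared with EB.

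**Figure D1:**
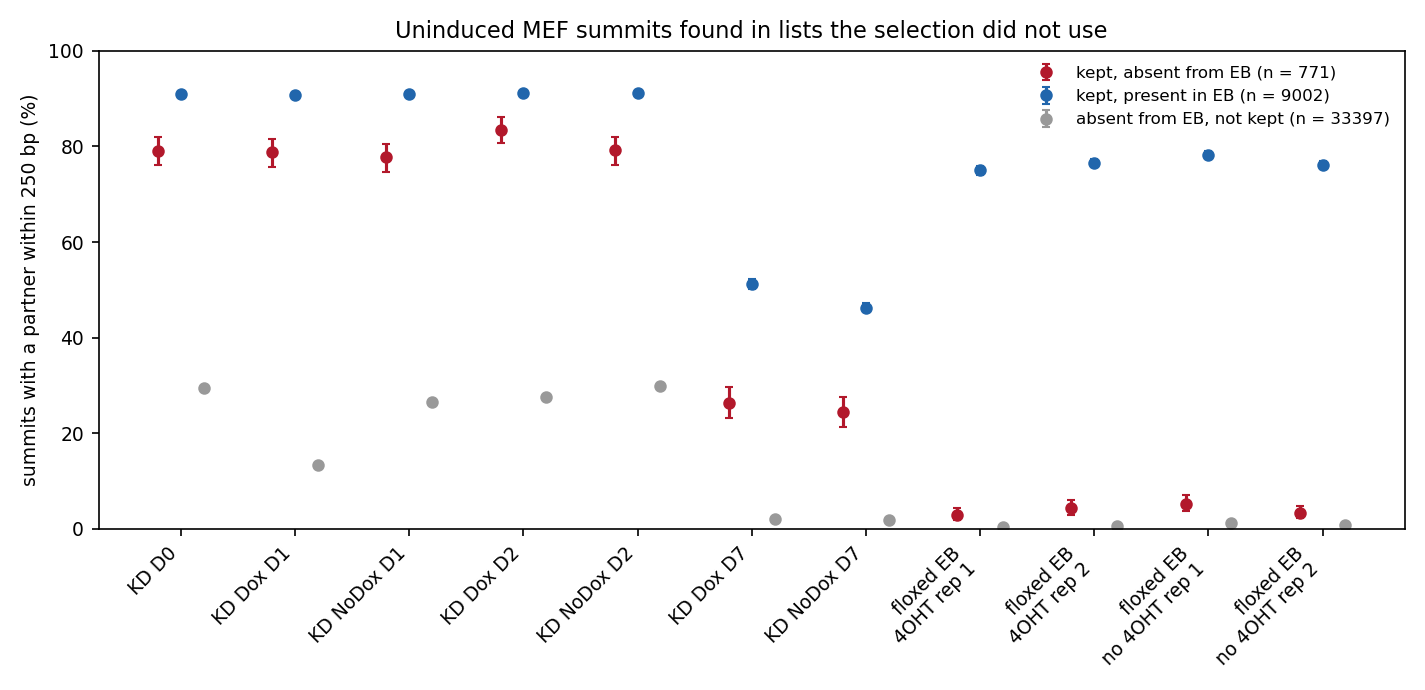
Share of uninduced MEF summits with a partner within 250 bp in the 7 knockdown (KD) MEF lists and the 4 floxed EB lists, for the 771 regions (red), kept summits shared with EB (blue) and EB-absent summits not kept (grey). Points are shares of 1 list each and bars are exact 95% intervals; the red points stay between 77.7% and 83.5% through day 2, stand at 26.3% and 24.4% on day 7, and lie at 5.32% or below in the floxed EB.

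Dox in the knockdown arm can be read within 1 arm and 1 written format. On day 1, 86 of the 771 regions had a partner in the Dox list only and 78 in the no-Dox list only, a difference of 1.04 percentage points with Dox minus no Dox (paired large-sample 95% interval −2.22 to 4.29). The EB-absent summits not kept differed by −13.3 points (−13.8 to −12.8), at 13.3% with Dox, against 26.6% with no Dox. Part of this contrast lies in how the sets were made. The summits not kept were chosen in part for their absence from the Dox lists of the other arm. The 771 were chosen for calls in those lists. On day 2 the 771 differed by 4.28 points (1.55 to 7.01), with 75 in the Dox list only and 42 in the no-Dox list only, and the summits not kept by −2.34 points. On day 7 the values were 1.95 points (−0.82 to 4.72) for the 771 and 0.243 points for the summits not kept. The kept summits shared with EB differed by −0.222 points (−0.900 to 0.455) on day 1. Their values were −0.178 points on day 2 and 4.93 points (3.90 to 5.96) on day 7. Each list is 1 value, so all these intervals cover counting over summits and not variation between cultures. An interval that leaves out 0 is no test of Dox.

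The sizes of these differences move with list length and with the matching distance. When both lists of a day were cut to the length of the shorter, the day-1 difference was 5.32 points for the 771 and −6.56 points for the summits not kept, and with all knockdown lists at the shortest length the second was −1.59 points. Matching within 100 bp gave −5.92 points for the 771 on day 1, so its direction is not settled, and −9.32 points for the summits not kept. On day 2 the value for the 771 was above 0 under every alternative run, between 2.01 points (matching within 500 bp) and 10.2 points (no unsorted day-7 list asked for). Each alternative still chose regions for calls in Dox lists of the other arm, which can favour values above 0. The constant sign is therefore a description only. Of the regions with a partner in the no-Dox list, 87.0% also had one in the Dox list on day 1 (521 of 599), 93.1% on day 2 (569 of 611) and 72.3% on day 7 (136 of 188), against 36.0%, 64.6% and 55.1% of the summits not kept and 94.0%, 94.8% and 78.1% of the kept summits shared with EB. Over all uninduced summits these shares were 63.3%, 77.7% and 72.8%, so on day 7 the regions stood at the level of the whole list.

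On day 1 of the knockdown arm, higher uninduced scores went with higher shares, and the regions stood above the summits not kept in every band of score. Among summits scoring under 5, 36.7% of the 79 regions had a partner on day 1 with Dox, against 6.24% of the summits not kept. Among those scoring 20 to 40 the shares were 84.4% of 179 regions, against 23.6%, and at 80 and over 97.7% of 86 regions, against 55.7%. In the no-Dox list of the same day the 3 pairs were 25.3% against 11.7%, 81.6% against 48.3% and 96.5% against 83.5%. The gap at matched score was therefore wider in the Dox list in these 3 bands. The regions were chosen for calls in the Dox lists of the other arm, and the summits not kept for a missing one. Part of the wider gap thus lies in how the sets were made, which matching on the uninduced score does not remove. A further set, uninduced summits that EB share and at least 1 induced list lacked, came closer to the regions' no-Dox shares. Region shares against theirs were 25.3% against 23.3% under 5, 58.1% against 40.1% at 5 to 10 and 81.6% against 83.3% at 20 to 40. With Dox the pairs under 5 and at 20 to 40 were 36.7% against 14.2% and 84.4% against 72.8%. Standing above the summits not kept in the no-Dox list was thus not particular to the regions. On day 7 the order of the bands turned round for the regions. Among those scoring under 5, 72.2% had a partner with Dox, against 58.2% with no Dox, and among those scoring 80 and over 10.5% did with Dox, against 12.8% with no Dox. The summits not kept stood at 3.92% with Dox and 3.44% with no Dox in the lowest band, and at 5.06% with Dox and 3.16% with no Dox in the highest. The fall over the lower bands was also seen in the kept summits shared with EB. With Dox these went from 86.6% under 5 to 28.8% at 20 to 40, but stood at 84.5% at 80 and over. With no Dox the same 3 values were 82.4%, 26.1% and 78.9%.

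**Figure D2:**
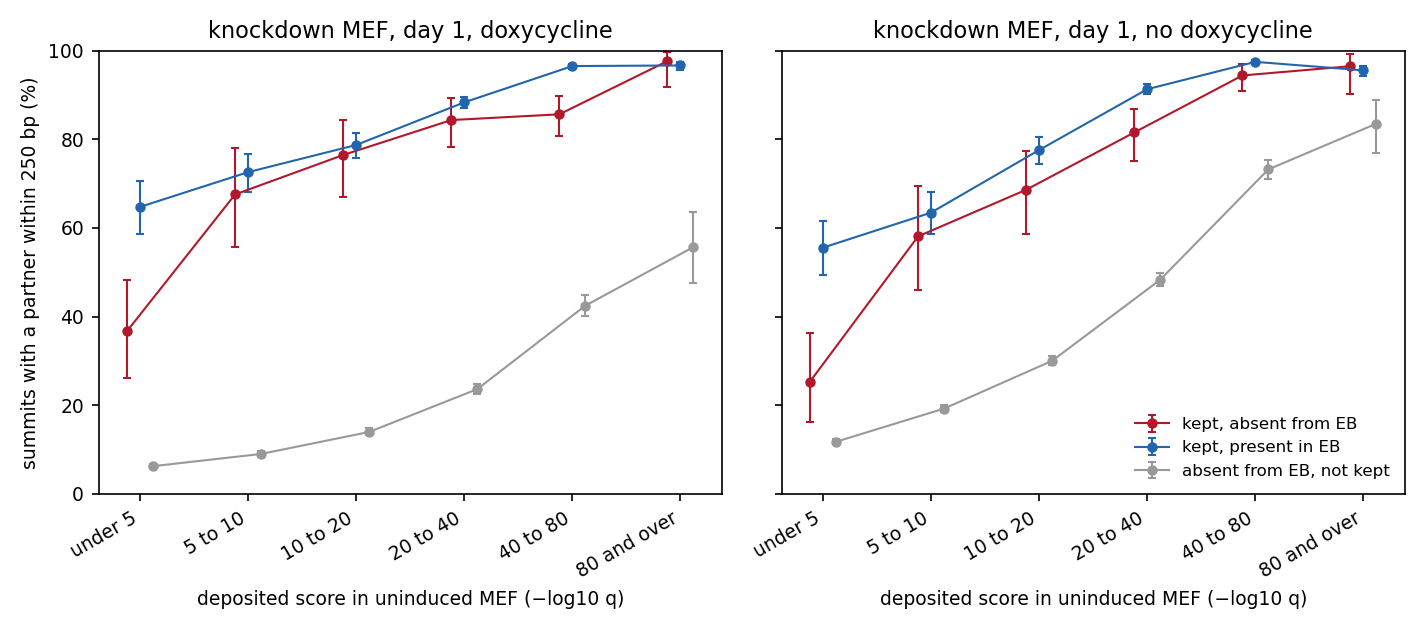
Share of uninduced MEF summits with a partner within 250 bp in the day-1 knockdown lists with Dox (left) and with no Dox (right), by band of the deposited uninduced score (−log10 q). Points are shares with exact 95% intervals for the 771 regions (red), kept summits shared with EB (blue) and EB-absent summits not kept (grey); the red points stand above the grey ones in every band, at 36.7% against 6.24% in the lowest band with Dox.

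The knockdown lists divided the 771 regions into unlike groups. A first group of 370 was found in all 5 lists of days 0 to 2 and in no day-7 list. It had a median score of 50.7, lay a median of 8071 bp from the nearest EB summit, and 13% of it stood in peaks with more than 1 summit. A group of 98 was found in all 5 early lists and in at least 1 day-7 list, with a median score of 34.0. A group of 126 was found in 1 to 4 early lists and in at least 1 day-7 list. Its median score was 9.01, its median distance to an EB summit was 619 bp, and 61.9% of it stood in multi-summit peaks. A further 31 were found on day 7 and in no earlier list, with a median score of 3.88, and 9 were found in no knockdown list. The remaining 137 were in 1 to 4 early lists and no day-7 list. These groups were formed from the knockdown lists themselves, so their presence there is no finding, while score, EB distance and peak form were read from other lists. All 5 early lists held a partner for 60.7% of the regions, against 23.5% of all uninduced summits and 78.4% of the kept summits shared with EB. The share with no partner in any knockdown list was 1.17%, against 35.2% and 0.489%. The other groups were not counted over all uninduced summits.

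The floxed EB, with 1 list per sample, gave the only replicated values. Of the 771 regions, 2.85 and 4.28% had a summit within 250 bp in the 2 samples with 4OHT, against 5.32 and 3.37% in the 2 samples with no 4OHT. The groups overlapped. The means were 3.57 ± 1.01% with 4OHT and 4.35 ± 1.38% with no 4OHT (SD, n = 2 each), a difference of −0.78 points (exact permutation test, two-sided, p = 0.667, where 2 samples against 2 cannot go below 0.333). Without the first no-4OHT replicate the difference was 0.195 points. The EB-absent summits not kept stood at 0.422 and 0.542% with 4OHT, against 1.27 and 0.856% with no 4OHT, and the kept summits shared with EB at 75 and 76.5%, against 78.2 and 76.1%. All uninduced summits stood at 20.7 and 22.0% with 4OHT, against 26.3 and 23.6% with no 4OHT. The regions were chosen for absence from other EB lists, so low shares in the floxed EB lie in part in that choice. In all, 708 of the 771 regions had no summit in any of the 4 floxed lists, 63 had one in at least 1 list and 9 in all 4. This last count was not made for all uninduced summits.

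The regions were distal. Within 1 kb of the end of a protein-coding gene interval lay 54 of 771, or 7.00% (5.31 to 9.04%), against 5.73% of the EB-absent summits not kept, 65.2% of the kept summits shared with EB and 23.8% of all uninduced summits. A further 42.0% lay inside a gene interval and over 1 kb from its ends, and 51.0% lay outside all gene intervals, against 47.3% of the summits not kept and 18.4% of the kept summits shared with EB. Over 50 kb from any protein-coding gene stood 161 regions, or 20.9%, against 21.9% of the summits not kept and 16.3% of all uninduced summits. The median distance to an annotated start was 26945 bp, against 29776 bp for the summits not kept and 193 bp for the kept summits shared with EB. The summits not kept, which are also absent from EB, thus stood nearly as far from starts. The gene-end share of the regions was 16.4% when partners had to lie within 100 bp, 4.27% within 500 bp and 2.33% with scores of at least 10. The share of the kept summits shared with EB was not computed at these settings.

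**Figure D3:**
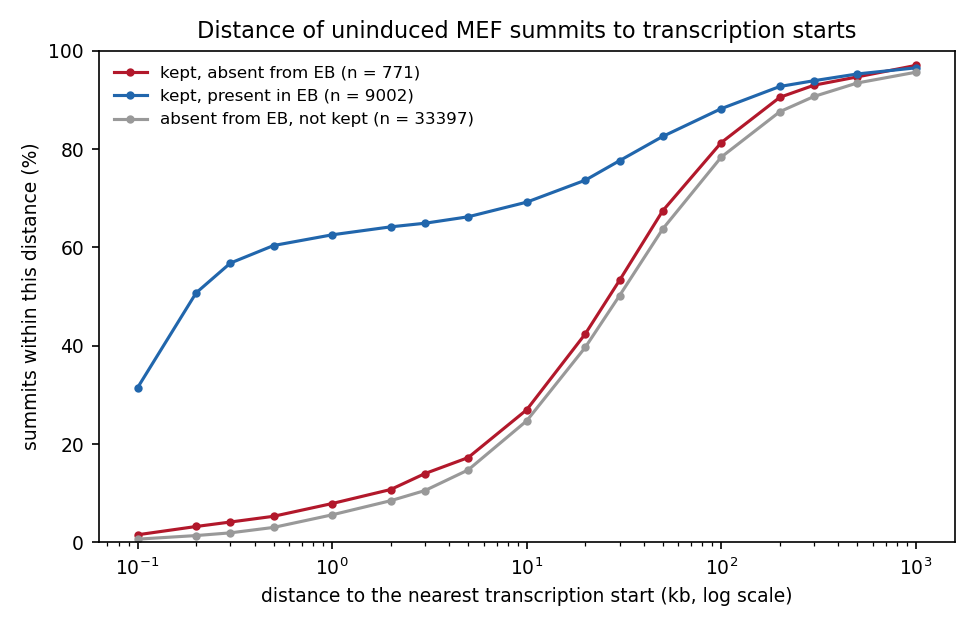
Cumulative share of uninduced MEF summits within a given distance of the nearest annotated transcription start (kb, log axis) for the 771 regions (red), kept summits shared with EB (blue) and EB-absent summits not kept (grey). The red curve runs close to the grey one, with medians of 26945 and 29776 bp, while the blue curve has passed 50% within 0.2 kb.

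Chromosomes held the regions unevenly. Chromosome 17 kept 67 of its EB-absent summits, or 4.09% (3.18 to 5.16%), and chromosome 16 kept 9, or 0.850% (0.389 to 1.61%), against 2.26% over all. Chromosome 1 held the most regions, 80, followed by chromosomes 6 with 71 and 17 with 67. Among summits that EB share, the kept share lay between 25.9% on chromosome 4 and 38.4% on chromosome 17, a smaller ratio between its extremes. Chromosome X held 13 regions. Of these, 4 had a partner in the day-0 knockdown list, whereas 79.9% of the autosomal regions and 44.6% of all 1682 uninduced summits on X did. The day-7 knockdown lists held a partner for 11 of the 13 with Dox, against 8 of the 13 with no Dox, and for 25.3% of the autosomal regions with Dox, against 23.7% with no Dox. Over all uninduced summits on X the day-7 shares were 16.7% with Dox, against 14.4% with no Dox.

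**Figure D4:**
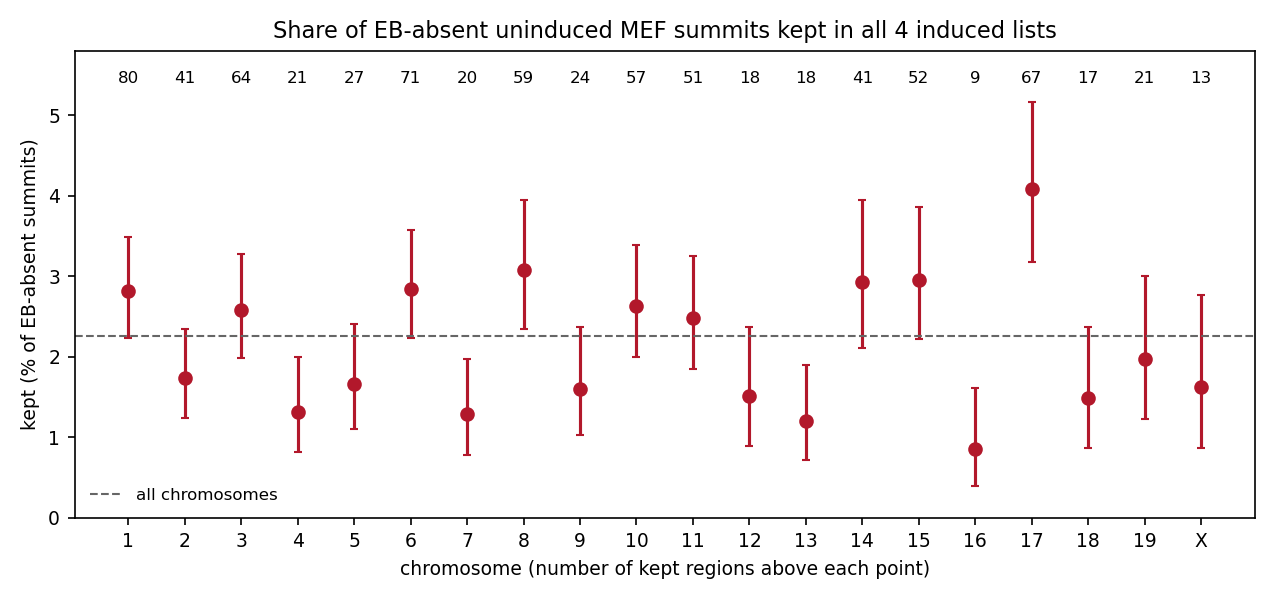
Share of EB-absent uninduced MEF summits that were kept in all 4 induced lists, by chromosome, with exact 95% intervals and the number of kept regions above each point. The dashed line is the share over all chromosomes, 2.26%; chromosome 17 stands highest at 4.09% and chromosome 16 lowest at 0.850%.

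Around genes, the regions were thinly spread. Of 21631 protein-coding genes, 1157 had at least 1 region within 50 kb of the gene interval, or 5.35%, whereas 72.9% had at least 1 EB-absent summit that was not kept. In the fibroblast matrix and mesenchymal transcription factor lists together 4 of 58 genes (6.90%) had a region, close to that background, and 49 had a summit that was not kept. Every one of the 34 matrix genes had a summit that was not kept, with a median of 7 per gene, against a median of 2 over all genes. No region lay within 50 kb of Prrx1, a mesenchymal homeobox factor, or of the type I collagen genes Col1a1 and Col1a2, where 11, 5 and 9 summits were not kept. This count turned on the unsorted day-7 list. When it was not asked for, 20 of the 58 genes (34.5%) had a region, against 16.9% of all protein-coding genes under the same rule. These were 14 of 34 matrix genes (41.2%) and 6 of 24 mesenchymal factors (25%). Such shares were not particular to the fibroblast lists. Under that rule the actin list stood at 40%, the TGF-β list at 38.9% and the TEAD and YAP list at 37.5%. The macrophage and skeletal muscle lists stood at 25% each, and the remaining lists between 0% and 16.7%. With scores of at least 10, none of the 58 had one. The name fibroblast memory here refers to the lists in which the regions were called.

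The 4 fibroblast genes with a region were Runx2, Sparc, Mmp2 and Timp3. Runx2 (chr17:44495987-44814797) encodes the transcription factor of bone formation, and its region at chr17:44500610 lay inside the gene, 4623 bp from its end. That summit scored 69.4 at day 1, 14.1 at day 2, 7.10 at day 7 and 15.9 in Flk1-positive cells, against 123 with no Dox, and it was called in all 5 knockdown lists of days 0 to 2. The region beside Sparc, a collagen-binding matrix protein, lay at chr11:55428401, 8321 bp outside the gene, with scores of 60.6, 5.57 and 9.91 at days 1, 2 and 7 and 10.9 in Flk1-positive cells, against 75.3 with no Dox. It too was in the 5 early knockdown lists. Mmp2 encodes a gelatinase and Timp3 an inhibitor of such matrix proteases. Their regions lay inside the genes at chr8:92847534, with an uninduced score of 54.4, and chr10:86339793, with 45.8, and were called in 4 and 6 knockdown lists.

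Among genes of the actin cytoskeleton 3 of 20 (15%) had a region. Zyx, a focal adhesion protein, had 2, at chr6:42382243 and chr6:42396622, which lie closer to other genes, and both were in all 5 knockdown lists of days 0 to 2. Myh9, the heavy chain of non-muscle myosin, had 1 inside the gene at chr15:77798935 with a score of 79.5, and Actg1, cytoplasmic γ-actin, had 1 at chr11:120344148 with 19.5. In the TGF-β list 1 of 18 genes had any, Ltbp1 with 2, at chr17:75178579 in the window printed above and at chr17:75110896. The first scored 60.9 and was in 6 knockdown lists, the second scored 57.5 and was in 3. No region lay within 50 kb of any of the 13 AP-1 genes or the 16 TEAD and YAP pathway genes. Over all genes 5.35% had one, so none in lists this short is near that background. A summit that was not kept lay near 12 and 15 of them, against 72.9% of all genes. With no unsorted day-7 list asked for, 6 of the 16 TEAD and YAP genes (37.5%) had a region. None of the 13 AP-1 genes did under that rule, against 16.9% of all genes.

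The lists of other lineages gave between 0% and 16.7%, on either side of the 5.35% over all genes. In the endothelial list 1 of 30 genes had a region, Emcn, which encodes the sialomucin endomucin, at chr3:137293378, 47684 bp from the gene. That region was found in the knockdown lists with Dox on day 1 and day 2 and in no other, with scores of 4.73 and 28.7. The haematopoietic list had 1 of 19, the epithelial 1 of 12, the skeletal muscle 2 of 12 (16.7%) and the housekeeping 1 of 20, while the macrophage, pluripotency and neural lists had none of 12, 20 and 14. No region lay near Kdr, Etv2, Smarca4 or Gapdh. With such small lists each gene moves the share by several points, and the median number of regions per gene was 0 in every list.

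**Figure D5:**
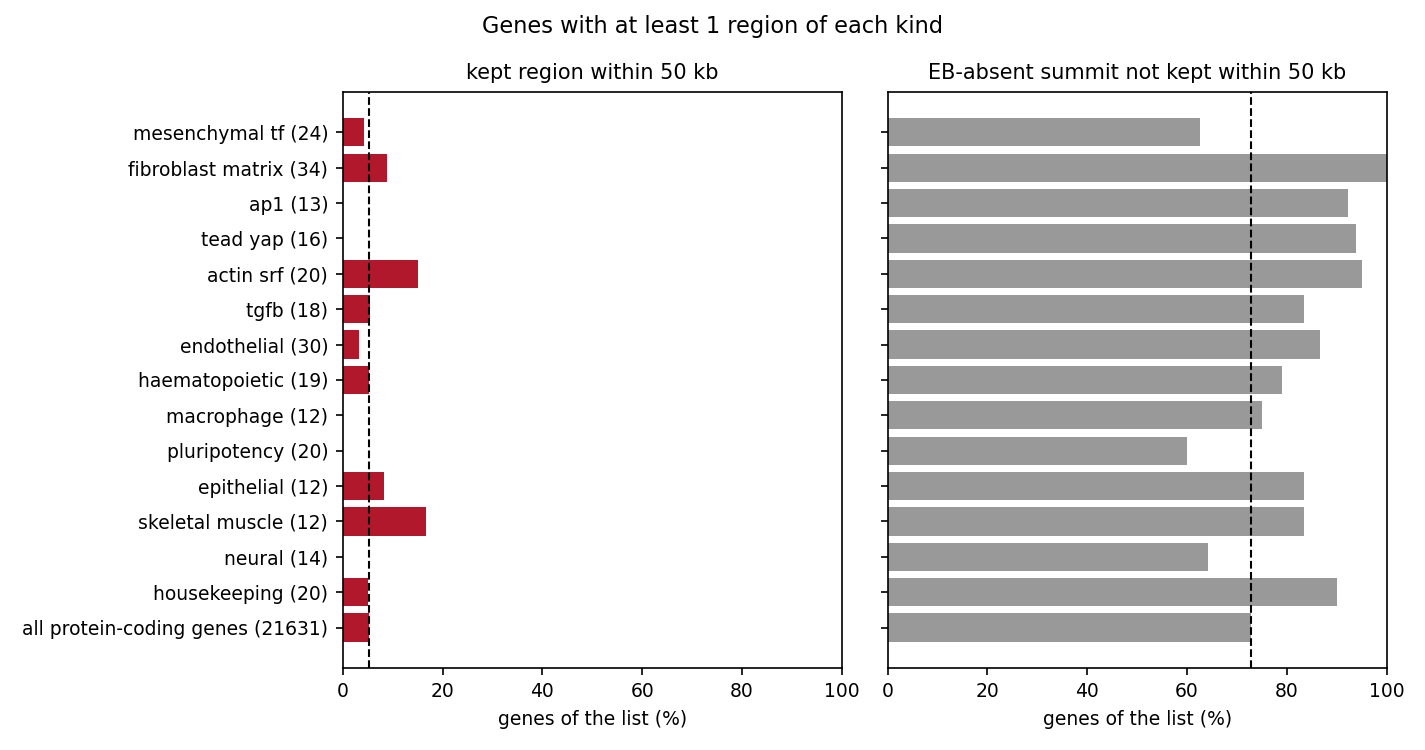
Share of the genes of each list (number of genes in brackets) with at least 1 of the 771 regions (left, red) and with at least 1 EB-absent summit not kept (right, grey) within 50 kb of the gene interval. Dashed lines are the shares over all 21631 protein-coding genes, 5.35% and 72.9%; the fibroblast matrix bar reaches 8.82% on the left and 100% on the right.

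Of the 1157 genes, 1028 had 1 region within reach, 119 had 2, 8 had 3 and 2 had 4. Sh3pxd2b (chr11:32347773-32428189), an adaptor protein of podosomes, had 4, at chr11:32435858, chr11:32398552, chr11:32345891 and chr11:32345745. Their uninduced scores were 57.7, 32.2, 14.6 and 11.1, the last 2 lie in 1 peak, and all 4 were called in the 5 knockdown lists of days 0 to 2 and in none of day 7. Apba2, a neuronal adaptor, also had 4, but these had scores of 4.96 to 19.7 in peaks of 20 to 22 summits and were all called in both day-7 knockdown lists.

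The genes with 3 regions differed in the same way. Nfatc2 (chr2:168476410-168601657), a calcium-dependent transcription factor, had its regions at chr2:168518451, chr2:168466227 and chr2:168451909, with uninduced scores of 64.1, 49.3 and 43.3, each the sole summit of its peak and each in the 5 early knockdown lists. Wwc2, of the KIBRA family that acts in Hippo signalling, had 3 inside the gene with scores of 118, 39.4 and 30.5, of which the first 2 were in all 5 early lists. Cdkn1a, which encodes the cell cycle inhibitor p21, shares its 3 with the neighbouring Rab44, with scores of 15.5, 9.74 and 5.46, and these were called in both, 1 and both of the day-7 knockdown lists. The 3 near Gas8 lay in 1 peak of 133 summits with EB summits 254 to 302 bp away. Pofut2, Tcp10c and Hrh1 also had 3.

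Of 1005 microRNA hairpins in the reference, 6 lay within 5 kb of a region. The same count for the other uninduced summits is not given, so this one is a description only. One region, at chr3:138526440, lay inside the hairpin of Mir1956, and another, at chr11:86586971, lay 2813 bp from Mir21a, which encodes a widely expressed microRNA. The Mir21a region scored 36.8 in the uninduced list, was called in the 5 knockdown lists of days 0 to 2 and had an EB summit 258 bp away. Both, like Osgin1, Bzw1 and Il1r1, were named after their values had been seen.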

How the data were processed

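ATAC-seq was measured in 34 samples, and 19 summit lists were used. Per the submitters' processing notes, reads were aligned with Bowtie2 2.2.4 to mm10 and MACS2 and HOMER were used; read trimming, duplicate handling and the shift for transposase cutting are not given in the sources used here. The authors deposited a −log10 q score per summit, and every score exceeded 1.30. Of the lists, 15 serve both replicates of a group, and how these were combined is not given in the sources used here. The read depth of the samples was not analysed here, so the precision of a list is unknown and intervals cover counting error only.

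Summits were matched within 250 bp with scipy 1.17.1, pandas 2.3.3 and numpy 2.4.6 under Python 3.11.15; figures used matplotlib 3.10.9. The matching was tested on simulated lists. Genes and promoter windows came from RefSeq on GRCm38.p6, whose gene table has no strand or exons. All 264 genes of 14 lists were found. The members, lists and alternatives were chosen with earlier results of these data known. The planned reading of motifs around every summit needed a genome and was replaced by promoter windows. Genes named are the 15 with the most regions within 50 kb, the nearest genes of the 10 highest-scoring regions, up to 5 genes with a region per main list, and Prrx1, Col1a1, Col1a2, Kdr, Etv2, Smarca4 and Gapdh. Signal tracks were not used here.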

Additional observations from a re-analysis of the deposited data

How the results depend on the processing

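The number of regions, 771, was 574 to 844 with matching within 100 or 500 bp, with absence from the floxed EB added, or without peaks of over 10 summits; it was 86 with scores of at least 10, 424 with MEF lists of equal length and 2955 with no unsorted day-7 list asked for. The mean share over the 7 knockdown lists, 64.1%, was 57.8% at 100 bp, 74.3% with scores of at least 10, 69.4% with MEF lists of equal length, 42.9% with knockdown lists of equal length, 79.7% over the 5 lists of days 0 to 2 and 56.7% with no unsorted day-7 list asked for.

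For Dox minus no Dox in the knockdown arm, in points, matching within 100 bp gave −5.92 on day 1 and 7.67 on day 2 for the 771, and −9.32 and −1.18 for the summits not kept; within 500 bp the summits not kept gave −15.2 and −3.01. Scores of at least 10 gave 6.98 on day 1 and −2.33 on day 7 for the 771, and −20.3 on day 1 for those not kept, which MEF lists of equal length put at −26.5. Knockdown lists of equal length gave 8.56 on day 2 and −0.908 on day 7 for the 771, and −1.59, −0.0419 and −0.00299 on days 1, 2 and 7 for those not kept. Each day's pair cut to the shorter gave 5.32 on day 1 and −0.908 on day 7 for the 771, and −6.56, 0.539 and −0.00299 for those not kept. With no unsorted day-7 list asked for, the 771 became a set with −7.41 on day 1 and 10.2 on day 2, and those not kept gave −3.37 on day 2. The cause was not tested.

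The 4OHT difference in floxed EB, −0.78 points, was 0.355 at 500 bp, 2.33 with scores of at least 10 and 0.584 with floxed lists of equal length; leaving out each replicate gave −1.75 to 0.195. Same-numbered samples deviated with a correlation of −0.0159, so the numbers are not taken to pair them, and with a replicate block the exact sign-flip permutation p was 1.0. The gene-end share, 7.00%, was 16.4% at 100 bp, 4.27% at 500 bp, 2.33% with scores of at least 10 and 10.9% with gene ends taken to 2.5 kb. Fibroblast genes with a region, 4, were 0 with scores of at least 10 and 20 with no unsorted day-7 list asked for, and summits whose window has the AP-1 letters, 15.8%, were 5.08% at 100 bp, 30.8% at 500 bp, 9.09% with MEF lists of equal length and 0% with scores of at least 10. The alternatives for distal regions, wide peaks, the day-7 list, the early knockdown lists and each day's pair of lists were added after seeing the data. Motif windows of 50 bp on either side were not run. Lists with 1 value per group allow no p-value.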
